A study of Rattus norvegicus with 8 samples.

Results

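The smooth muscle and mesenchymal cytoskeleton genes described here are Acta2, Tagln, Des and Vim, which are 4 of the 23918 genes with a value in these tumours. They were taken by Ensembl ID (ENSRNOG00000058039, ENSRNOG00000017628, ENSRNOG00000019810 and ENSRNOG00000018087), as genes that mark the identity of a uterine leiomyoma line, and their symbols come with that choice rather than from the deposited table. All 4 were among the 13686 genes tested. Acta2 encodes the actin of smooth muscle thin filaments, and Tagln encodes transgelin, which binds and bundles those filaments. Des encodes desmin and Vim encodes vimentin, intermediate filament proteins of muscle cells and of mesenchymal cells. In smooth muscle, serum response factor and its myocardin-related partners act at CArG boxes in the promoters of contractile genes, and contractile genes are commonly reduced when smooth muscle cells lose their differentiated state.

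RNA was sequenced from 8 tumours that ELT3-V3 cells formed under the skin. ELT3 cells are a rat uterine leiomyoma line without functional tuberin and are used to model lymphangioleiomyomatosis (LAM). The hosts were female NOD-scid mice aged 6 weeks, which lack B and T cells, and they entered a group at random once tumours measured 150 to 200 mm3. There were 4 groups of 2 tumours. Rapamycin, an inhibitor of mTORC1, was given alone at a daily 0.25 mg/kg, together with clorgyline (daily 10 mg/kg), or together with rasagiline (daily 1 mg/kg), and controls received vehicle, which held Tween-80 (0.25%) and carboxymethylcellulose (0.2%). Clorgyline and rasagiline are irreversible inhibitors of monoamine oxidase, selective for its A and its B form. The rapamycin dose is stated for rapamycin alone and not again where a second drug was added. Nothing says that each tumour came from a separate mouse, so the tests measure the spread between these tumours. Values are TPM (transcript abundance divided by gene length and scaled to a common sum), which keep no sequencing depth.

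Between 12317 and 13270 genes reached 1 TPM in a tumour, and there were 0 pairs of libraries with identical values. Rapamycin replicate 2 stood apart, at a mean distance of 0.783 from the other libraries (root mean square, log2), against 0.586 to 0.663 for the others. Values of the rapamycin group are therefore given with and without it. The tumours are xenografts, so host RNA aligned to rat sequence could add to any of these genes, and its part in the results was not tested.

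Promoters of 3 of the 4 genes were available from RefSeq (rat build GRCr8). They are shown from 250 bases before to 50 bases after the start of the gene, because CArG boxes are a known element of smooth muscle promoters. Capitals mark TATAAA, or a CArG box with 1 G or C in its A/T core.
Acta2 (chr1:241172454-241172753, minus strand): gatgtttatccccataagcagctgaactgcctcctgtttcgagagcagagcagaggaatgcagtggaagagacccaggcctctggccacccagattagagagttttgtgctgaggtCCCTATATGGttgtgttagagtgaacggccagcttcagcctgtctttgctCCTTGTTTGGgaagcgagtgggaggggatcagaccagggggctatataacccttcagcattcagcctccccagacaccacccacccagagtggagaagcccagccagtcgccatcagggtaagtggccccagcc
Des (chr9:84299376-84299675, plus strand): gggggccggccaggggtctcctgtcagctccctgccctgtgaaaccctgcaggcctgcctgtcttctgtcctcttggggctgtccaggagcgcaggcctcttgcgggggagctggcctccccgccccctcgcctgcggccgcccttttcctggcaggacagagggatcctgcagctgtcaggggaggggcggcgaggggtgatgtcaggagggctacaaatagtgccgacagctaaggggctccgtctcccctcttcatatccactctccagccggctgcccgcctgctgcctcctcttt
Vim (chr17:81577011-81577310, plus strand): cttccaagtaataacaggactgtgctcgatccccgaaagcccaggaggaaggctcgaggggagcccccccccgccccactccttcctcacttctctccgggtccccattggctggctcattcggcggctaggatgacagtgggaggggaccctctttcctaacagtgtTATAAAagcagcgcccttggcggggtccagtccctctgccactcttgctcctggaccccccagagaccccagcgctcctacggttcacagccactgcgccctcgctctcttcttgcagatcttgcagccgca
No CArG box with a pure A/T core was found in the 3 windows on either strand, a motif that 1.64% of 33469 rat promoters of the same length hold. The Acta2 window held 2 copies of the form with 1 G or C in the core, CCCTATATGG starting at base -134 and CCTTGTTTGG starting at base -84, counted from the start of the gene. This form occurs in 8.10% of the promoters, and the Des and Vim windows held 0 copies. TATAAA was found once on the plus strand, in the Vim window at base -82, and in 14.2% of all promoters. The E-box CANNTG occurred once in the Acta2 window, once in the Des window and 0 times in the Vim window, and in 72.1% of all promoters. These matches describe letters in the windows. Neither binding nor a link to the differences between groups was tested.

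The genes differed widely in abundance, with both intermediate filament genes far above both actin filament genes. In the 6 tumours given rapamycin alone or in combination Vim ranged from 2513 to 3603 TPM, against 3011 and 3279 TPM in the controls, where it had ranks 31 and 26 among all genes. Des ranged from 400.1 to 905.6 TPM in these 6 tumours, against 1046 and 934.4 TPM in the controls. Acta2 ranged from 2.56 to 8.45 TPM, against 12.0 and 10.1 TPM in the controls. Tagln ranged from 2.18 to 10.1 TPM, against 17.1 and 11.4 TPM in the controls. Acta2 was thus below the median tested gene in 8 of 8 tumours and Tagln in 7 of 8, while Des and Vim were above it in all 8. Expressed as a ratio per length within a tumour, Vim exceeded Acta2 by 370.3 to 1408 times in the treated tumours and by 250.7 and 323.7 times in the controls. Set against the label of smooth muscle identity genes, desmin and vimentin transcripts were abundant, and the smooth muscle actin and transgelin transcripts were at low levels. Desmin is also a gene of skeletal muscle, whose markers could not be matched here. Acta2 shares most of its coding sequence with other actin genes, and how reads common to them were assigned is not given in the sources used here, so its level is uncertain.

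**Figure D1:**
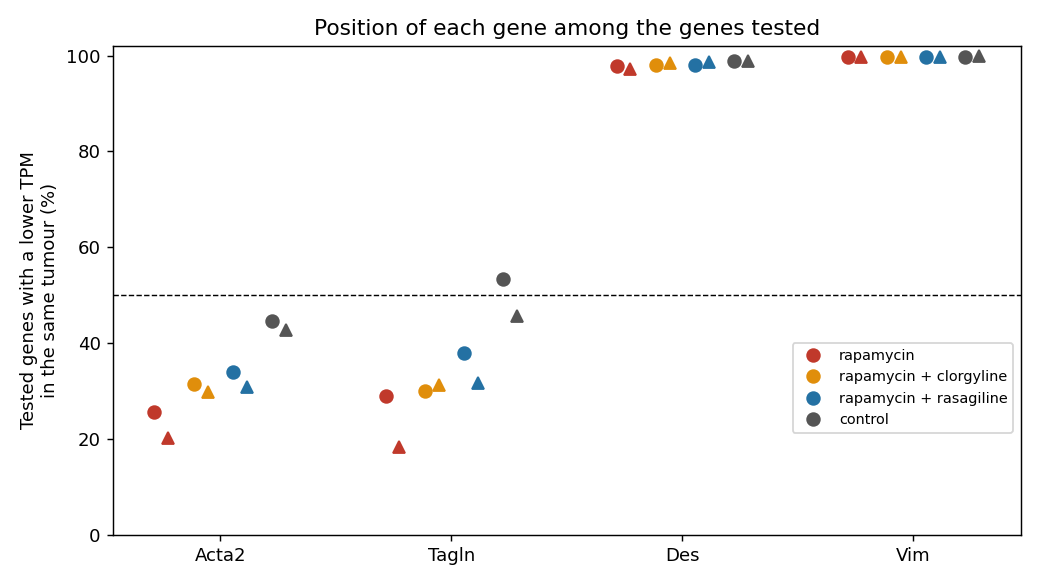
Share of the 13686 tested genes with a lower TPM than the named gene in the same tumour (vertical axis, %), with 1 point per tumour, circles for replicate 1 and triangles for replicate 2, and the median gene as a dashed line. Des and Vim lie above 97% in every tumour, whereas Acta2 lies between 20.2% and 34.0% in the treated tumours and at 44.5% and 42.8% in the controls.

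Rapamycin alone was set against control to ask how levels differed between tumours given the drug and tumours given vehicle. Acta2, Tagln and Des were each lower in both rapamycin tumours than in both controls, and Vim was not. With 2 tumours a group, 0 of the 4 genes passed the limma test after Benjamini-Hochberg adjustment over all genes, a test that 0.621% of tested genes passed. At an unadjusted p below 0.05 there were 3 of the 4, against 18.7% of all tested genes. The median log2 difference was -1.23 over the 4 genes and 0.09 over all genes tested. Acta2, Tagln and Des varied together over the 8 tumours (Pearson r = 0.859 to 0.983), and the 4 genes were chosen with earlier results known. Here and in the comparisons below, counts and medians over the 4 genes therefore do not stand for independent genes. In a bulk sample, fewer cells of a type and less RNA per cell cannot be told apart.

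Acta2 stood at 5.01 and 2.56 TPM in the rapamycin tumours, against 12.0 and 10.1 TPM in the controls. The groups did not overlap, as for 17.6% of all tested genes in this direction, and rapamycin replicate 2 was the lowest of the 8 tumours. The log2 difference was -1.38 (SE 0.285, 95% interval -2.05 to -0.71), which is 2.60-fold lower on the log2(TPM + 1) scale and missed the threshold (limma adjusted p = 0.082). It was -1.001 without rapamycin replicate 2 and -1.76 without rapamycin replicate 1, where it passed (limma adjusted p = 0.0128). In the fit without replicate 1, 9.71% of all tested genes passed, against 0.486% without replicate 2. Acta2 also passed after quantile normalization (log2 difference -1.40, limma adjusted p = 0.0476), as did 0.767% of tested genes. 2.01% of tested genes had a more negative difference.

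Tagln stood at 6.14 and 2.18 TPM in the rapamycin tumours, against 17.1 and 11.4 TPM in the controls. Its replicates varied most of the 4 genes, by 2.82 times between the rapamycin tumours, but the groups did not overlap. The log2 difference was -1.65 (SE 0.403, 95% interval -2.59 to -0.71; limma adjusted p = 0.106). It was -1.07 without rapamycin replicate 2 and -2.23 without rapamycin replicate 1 (limma adjusted p = 0.0131, in the fit that 9.71% of tested genes passed).

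Des stood at 551.7 and 400.1 TPM in the rapamycin tumours, against 1046 and 934.4 TPM in the controls. The desmin transcript thus averaged 475.9 ± 107.2 TPM with rapamycin and 990.1 ± 78.7 TPM in controls (SD, n = 2 each), again without overlap. The log2 difference was -1.07 (SE 0.257, 95% interval -1.67 to -0.47; limma adjusted p = 0.103), and it was -0.84 without rapamycin replicate 2 and -1.30 without rapamycin replicate 1 (limma adjusted p = 0.0328, again where 9.71% of tested genes passed).

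Vim stood at 2513 and 3603 TPM in the rapamycin tumours, against 3011 and 3279 TPM in the controls. Rapamycin replicate 1 was the lowest and replicate 2 the highest of all 8 tumours, so the rapamycin tumours enclosed the controls. The log2 difference was -0.06 with a 95% interval from -0.52 to 0.40 (limma adjusted p = 0.891). Its sign changed to 0.20 without rapamycin replicate 1, and it was -0.32 without replicate 2.

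**Figure D2:**
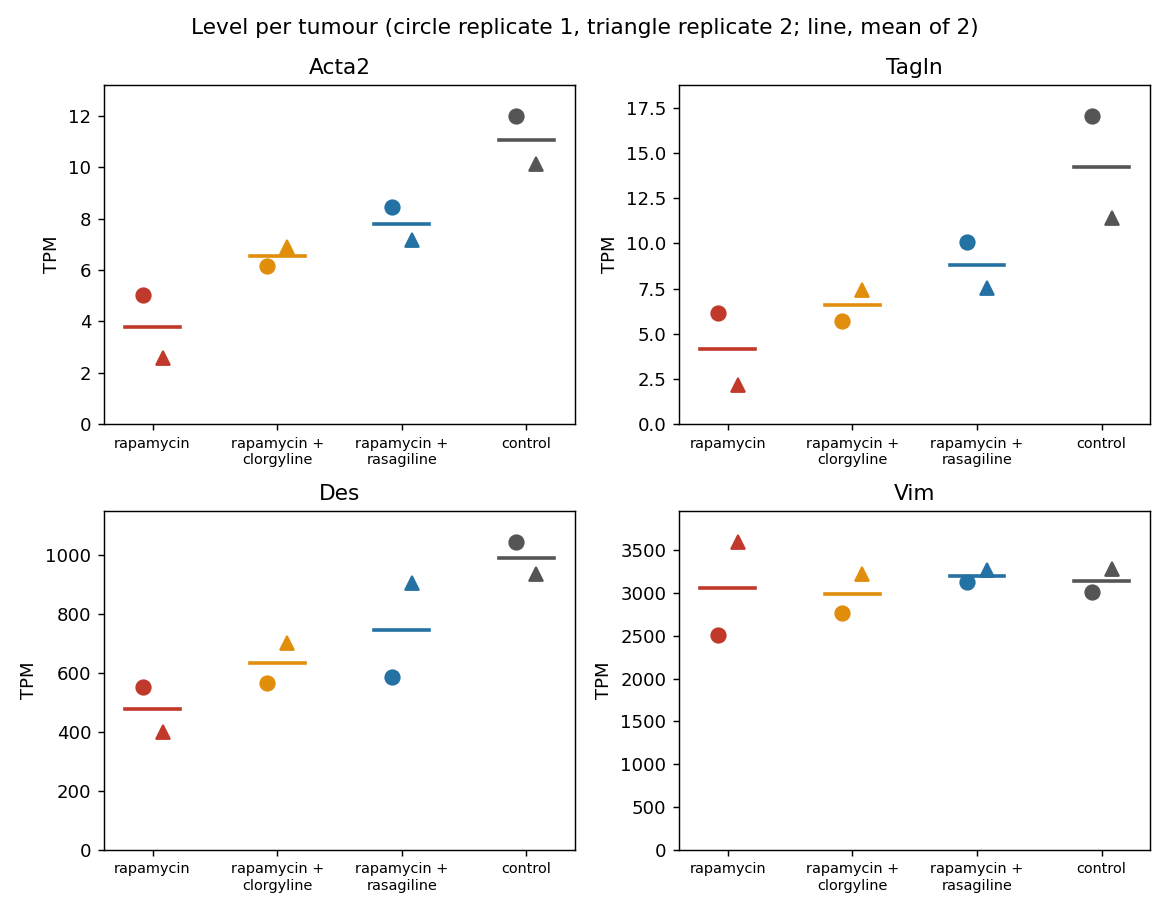
TPM (vertical axis, from 0) of each gene in the 8 tumours by treatment, with circles for replicate 1, triangles for replicate 2 and a line at the mean of 2 tumours. In Acta2, Tagln and Des the rapamycin mean is lowest and the control mean highest, while Vim stands between 2513 and 3603 TPM with overlapping groups.

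Rapamycin with clorgyline was set against the same controls. Acta2 stood at 6.17 and 6.91 TPM in these tumours, against 12.0 and 10.1 TPM in the controls, and Tagln at 5.73 and 7.41 TPM, against 17.1 and 11.4 TPM. Des stood at 567.0 and 701.2 TPM, against 1046 and 934.4 TPM. In these 3 genes the groups did not overlap, as for 19.8% of tested genes in this direction, whereas Vim at 2771 and 3218 TPM overlapped the controls. The log2 differences were -0.68 for Acta2 (95% interval -1.34 to -0.01), -0.99 for Tagln (-1.94 to -0.05), -0.65 for Des (-1.25 to -0.05) and -0.07 for Vim (-0.53 to 0.39). Of the 4 genes, 0 passed the limma test (adjusted p = 0.34 to 0.908), which 0.0146% of tested genes passed. At an unadjusted p below 0.05 there were 3, against 13.4% of tested genes.

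Rapamycin with rasagiline showed the smallest differences from control among the 3 treatments in Acta2, Tagln and Des. Acta2 stood at 8.45 and 7.16 TPM, against 12.0 and 10.1 TPM in the controls, and Tagln at 10.1 and 7.53 TPM, against 17.1 and 11.4 TPM. Des stood at 587.3 and 905.6 TPM, against 1046 and 934.4 TPM, so that its replicate 2 was close to the lower control. In these 3 genes the groups did not overlap either, as for 18.3% of tested genes in this direction. The log2 differences were -0.45 for Acta2 (95% interval -1.12 to 0.21), -0.62 for Tagln (-1.56 to 0.32) and -0.44 for Des (-1.04 to 0.16), so each interval included 0. Leaving out rasagiline combination replicate 1 gave -0.13 for Des, and leaving out replicate 2 gave -0.75. Vim stood at 3127 and 3272 TPM, with a log2 difference of 0.03 (95% interval -0.43 to 0.48) that changed sign under both other scalings (-0.07 by quantiles, -0.14 by medians). Of the 4 genes, 0 passed the limma test and 0 had an unadjusted p below 0.05, against 1.51% and 19.6% of tested genes.

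When the 3 rapamycin-containing groups were averaged, the log2 difference from control was -0.84 for Acta2 (SE 0.233, limma adjusted p = 0.102), -1.09 for Tagln (SE 0.329, limma adjusted p = 0.119), -0.72 for Des (SE 0.21, limma adjusted p = 0.112) and -0.04 for Vim (SE 0.16, limma adjusted p = 0.913). Thus 0 of the 4 genes passed, against 2.46% of all tested genes, and 3 had an unadjusted p below 0.05, against 21.8%. The 6 treated tumours lay below both controls in 3 of the 4 genes, and in 8.91% of all tested genes. Without rapamycin replicate 1, Acta2, Tagln and Des passed the limma test (adjusted p = 0.0219, 0.0199 and 0.0458), as did 9.74% of tested genes. Without rapamycin replicate 2 their differences were -0.71, -0.89 and -0.64 and did not pass (limma adjusted p = 0.0537, 0.0584 and 0.0909), while 7.73% of tested genes did. Acta2 also passed after quantile normalization (log2 difference -0.96, limma adjusted p = 0.0448), as did 2.6% of tested genes. The median of all tested genes moved from 0.10 to 0.00 under that scaling. These comparisons use the same 2 controls, so they are not separate evidence of a direction.

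**Figure D3:**
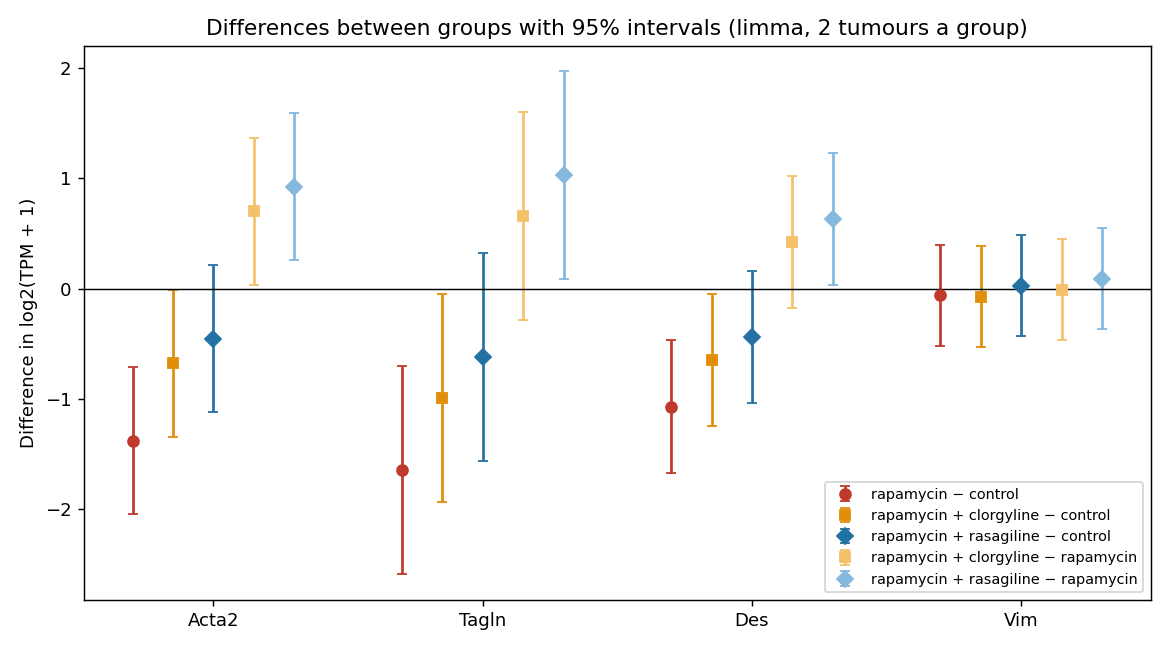
Difference in log2(TPM + 1) for each gene in 5 comparisons, with 95% intervals from limma as bars; dark symbols are differences from control and pale symbols are differences of a combination from rapamycin alone. The intervals of Acta2, Tagln and Des against control lie below 0 for rapamycin and for the clorgyline combination and include 0 for the rasagiline combination, and all intervals of Vim include 0.

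Each combination was compared with rapamycin alone, to ask how levels differed where a second drug was given. The rapamycin dose of the combinations is not stated, and no group received clorgyline or rasagiline without rapamycin. An effect of the second drug and a different rapamycin exposure therefore cannot be told apart. Acta2 averaged 6.54 ± 0.523 TPM with clorgyline added (SD, n = 2), against 3.79 ± 1.74 TPM for rapamycin alone (SD, n = 2). Des averaged 634.1 ± 94.9 TPM with clorgyline added, against 475.9 ± 107.2 TPM for rapamycin alone (SD, n = 2 per group). Both genes were higher in both clorgyline combination tumours than in both rapamycin tumours, as were 13.6% of tested genes, while Tagln at 5.73 and 7.41 TPM overlapped the 6.14 and 2.18 TPM of rapamycin alone. The log2 differences were 0.70 for Acta2 (95% interval 0.04 to 1.37), 0.66 for Tagln (-0.29 to 1.60), 0.42 for Des (-0.18 to 1.02) and -0.01 for Vim (-0.47 to 0.45). Of the 4 genes, 0 passed the limma test, as did 0% of tested genes, and 1 had an unadjusted p below 0.05, against 7.68%. Without rapamycin replicate 2 the differences of Acta2, Tagln and Des were 0.32, 0.07 and 0.19, and 0.0147% of tested genes passed. Without rapamycin replicate 1 they were 1.08, 1.24 and 0.65 and did not pass (limma adjusted p = 0.0693, 0.0882 and 0.215), while 3.49% of tested genes did.

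With rasagiline added, Acta2, Tagln and Des were each higher in both tumours than in both rapamycin tumours, as were 19% of tested genes. Acta2 averaged 7.81 ± 0.906 TPM, against 3.79 ± 1.74 TPM for rapamycin alone, and Tagln averaged 8.81 ± 1.82 TPM, against 4.16 ± 2.80 TPM (SD, n = 2 each). Des averaged 746.4 ± 225.04 TPM, against 475.9 ± 107.2 TPM for rapamycin alone (SD, n = 2 per group). The log2 differences were 0.92 for Acta2 (95% interval 0.26 to 1.59), 1.03 for Tagln (0.09 to 1.97), 0.63 for Des (0.03 to 1.23) and 0.09 for Vim (-0.37 to 0.55). Of the 4 genes, 0 passed the limma test (adjusted p = 0.588 to 0.978), which 0.0146% of tested genes passed. At an unadjusted p below 0.05 there were 3, against 5.76% of tested genes, and the median log2 difference was 0.78 over the 4 genes and 0.05 over all tested genes. Without rapamycin replicate 2 the differences of Acta2, Tagln and Des were 0.55, 0.45 and 0.40, and 0.0442% of tested genes passed. Without rapamycin replicate 1 that of Acta2 was 1.30 and passed (limma adjusted p = 0.0452), as did 3.12% of tested genes. Those of Tagln and Des were then 1.61 and 0.86 and did not pass (limma adjusted p = 0.0509 and 0.154). These differences from rapamycin share its 2 tumours with each other and with the comparison of rapamycin with control.

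The combinations were also set side by side, although their second drugs differed in dose (a daily 10 mg/kg of clorgyline and 1 mg/kg of rasagiline). The log2 difference, clorgyline minus rasagiline, was -0.22 for Acta2 (95% interval -0.89 to 0.44), -0.37 for Tagln (-1.31 to 0.57), -0.21 for Des (-0.81 to 0.39) and -0.10 for Vim (-0.56 to 0.36). Of the 4 genes, 0 passed the limma test and 0 had an unadjusted p below 0.05, against 0.0219% and 4.64% of tested genes. Acta2 and Tagln were lower in both clorgyline combination tumours than in both rasagiline combination tumours, as were 27% of tested genes, and Des and Vim overlapped. Ordered by mean TPM from low to high, Acta2, Tagln and Des each ran from rapamycin through the clorgyline combination and the rasagiline combination to control, but no neighbouring groups in that order differed by the adjusted test.

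Ratios within a tumour do not depend on the scaling of TPM. Des reached 0.111 to 0.277 of the Vim level in the 6 treated tumours, and 0.347 and 0.285 of it in the controls. The ratios of Acta2 and Tagln to Vim likewise did not overlap between treated tumours and controls. Vim itself differed from control by a log2 difference of -0.04 over the 3 treatments averaged. The ratios to Vim thus largely repeat the lower TPM of the same 3 genes and are not separate evidence. The share of all genes whose ratio to Vim did not overlap was not computed. By TPM alone, the 6 treated tumours lay below both controls in 8.91% of all tested genes. The mean log2 ratio to Vim differed from control by -0.92 for Acta2, -1.20 for Tagln and -0.68 for Des, with two-sided exact permutation p = 0.179, 0.179 and 0.107, all 0.223 after adjustment over 5 ratios. Only 28 arrangements exist, so the smallest p is 0.0357. Acta2 and Tagln stayed at similar levels to each other, with a ratio of 0.816 to 1.17 in the treated tumours, and of 0.704 and 0.889 in the controls (log2 difference 0.27, exact permutation p = 0.179, adjusted 0.223). The ratio of Des to Acta2 was 69.5 to 156.4 in the treated tumours and 87.1 and 92.2 in the controls (log2 difference 0.24, exact permutation p = 0.50, adjusted 0.50). Single tumours moved both of these differences. That of Acta2 to Tagln was 0.10 without control replicate 1 and 0.44 without control replicate 2. That of Des to Acta2 was 0.13 without rapamycin replicate 2, 0.36 without rasagiline combination replicate 1, and 0.12 with 1 TPM added to both genes.

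**Figure D4:**
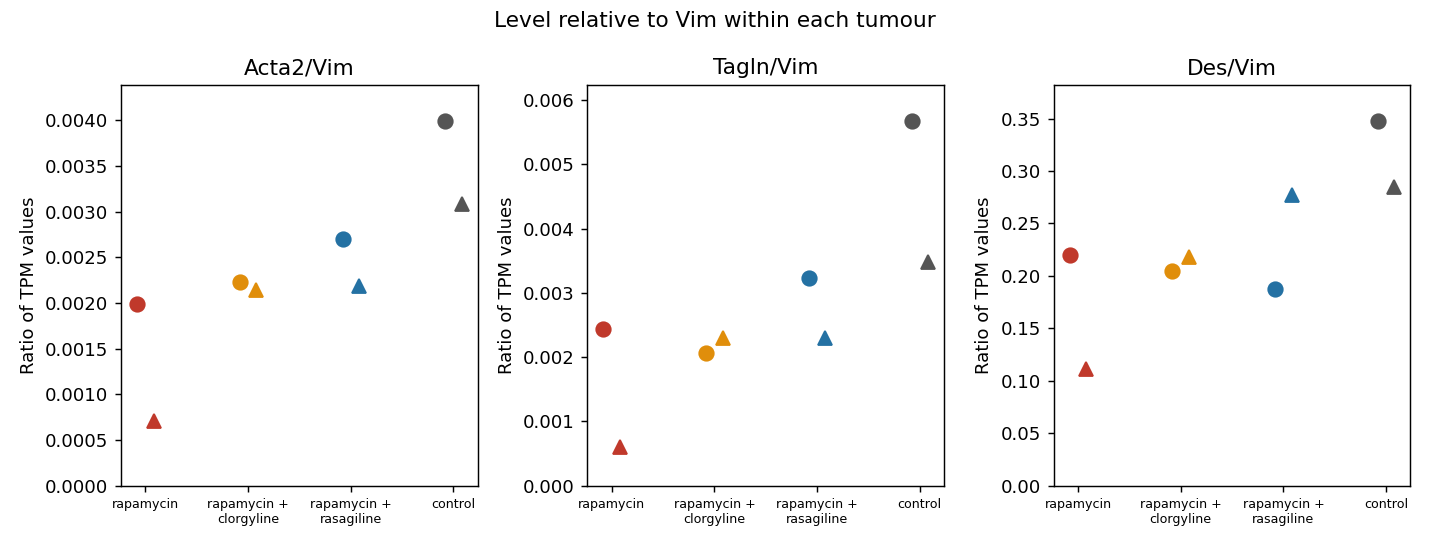
Ratio of the TPM of Acta2, Tagln and Des to that of Vim in each tumour (vertical axes, from 0), with circles for replicate 1 and triangles for replicate 2. All 6 treated tumours lie below both controls in each panel, and rapamycin replicate 2 is lowest, at 0.111 for Des. The share of all genes with such a ratio to Vim was not computed.

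Acta2 and Tagln varied together over the 8 tumours, with Pearson r = 0.983 and Spearman rho = 0.976 on log2(TPM + 1) (exact permutation p = 7.44e-05 and 0.000397, adjusted over 6 pairs 0.000446 and 0.00238). Without the 2 tumours farthest from the median of Acta2, which were rapamycin replicate 2 and control replicate 1, r was 0.933 (exact permutation p = 0.00694). Within the 6 treated tumours it was 0.977 (exact permutation p = 0.00417), and for deviations from the group means it was 0.988. With 2 tumours a group these deviations describe 4 pairs. The rapamycin pair varied most in both genes (SD 0.535 for Acta2 and 0.826 for Tagln, log2), so it weighs most in that value. Among the 10220 other tested genes with a mean of at least 5 TPM, 0 were more like Acta2 than Tagln was, and 0 were more like Tagln than Acta2 was.

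Des followed both genes less closely. Its r was 0.879 with Acta2 (rho = 0.929) and 0.859 with Tagln (rho = 0.905), with exact permutation p = 0.00355 and 0.00583 for r, 0.0106 and 0.0117 after adjustment, and 0.00223 and 0.00456 for rho, 0.0067 and 0.00913 after adjustment. Without rapamycin replicate 2 and control replicate 1 these were 0.647 and 0.549 (exact permutation p = 0.167 and 0.272). Those tumours are the farthest from the median of Acta2 and of Tagln, so leaving them out narrows the range. The lower r therefore does not show that the relations of Des rest on them. Without rasagiline combination replicate 1 alone r was 0.948 and 0.933. Without rapamycin replicate 2 alone r was 0.782 and 0.735 (exact permutation, adjusted p = 0.129 for both), and without control replicate 1 alone it was 0.834 and 0.797 (exact permutation, adjusted p = 0.0504 for both). Within the 6 treated tumours r was 0.768 and 0.726 (exact permutation p = 0.0944 and 0.117). The permutation moved tumours freely across groups, so these p-values also take in differences between groups. For deviations from group means r was 0.424 and 0.417. Of the 10220 genes, 127 were more like Acta2 and 261 more like Tagln than Des was. In turn, 77 were more like Des than Acta2 was, and 110 more like Des than Tagln was.

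Over the 8 tumours Vim had r = -0.14 to Acta2 (rho = 0.02), -0.21 to Tagln (rho = 0.00) and 0.02 to Des (rho = 0.10), and exact permutation p of 0.614 to 0.962 for r (0.88 to 0.962 after adjustment) and 0.84 to 1.0 for rho (1.0 after adjustment). Without rapamycin replicate 2 and control replicate 1, r with Vim was 0.821, 0.703 and 0.774 (exact permutation p = 0.0431, 0.114 and 0.0681), so its sign to Acta2 and Tagln depended on single tumours. For deviations from the group means r was -0.84 to Acta2, -0.79 to Tagln and -0.31 to Des. With 2 tumours a group the deviations of a pair mirror each other, so these values describe 4 pairs.

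**Figure D5:**
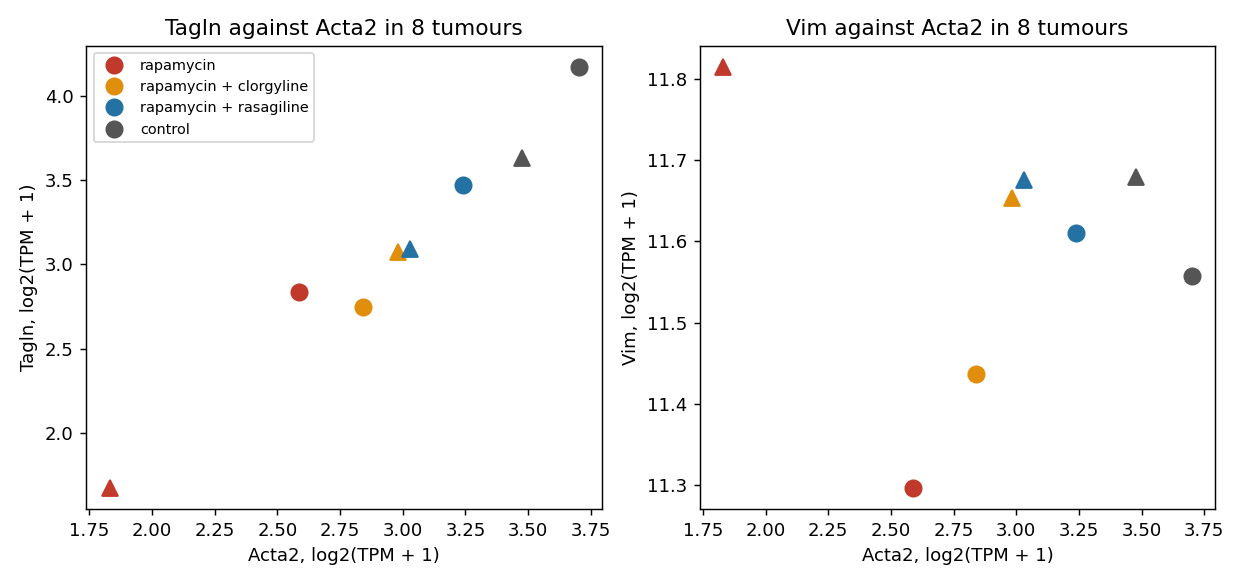
Level of Tagln (left) and Vim (right) against Acta2 in log2(TPM + 1), with 1 point per tumour, circles for replicate 1 and triangles for replicate 2. Tagln and Acta2 follow a line with r = 0.983, while rapamycin replicate 2 has the lowest Acta2 and the highest Vim.

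Beyond the 4 genes, those most like Acta2 and Tagln by Pearson r over the 8 tumours are known by ID only. ENSRNOG00000020956 was most like Acta2 (r = 0.976), at 20.5 and 13.2 TPM with rapamycin, 27.7 and 26.9 TPM with clorgyline added, 29.2 and 29.9 TPM with rasagiline added, and 36.8 and 37.4 TPM in controls. ENSRNOG00000054890 was most like Tagln (r = 0.979), at 107.4 and 55.7 TPM with rapamycin, 90.3 and 104.4 TPM with clorgyline added, 118.3 and 98.4 TPM with rasagiline added, and 158.0 and 123.2 TPM in controls. An r of at least 0.9 was reached by 71 of the 10220 genes for Acta2, 109 for Tagln, 50 for Des and 5 for Vim. Such counts were not made for other genes, so whether these are many or few is unknown. The genes share libraries, so these values only describe likeness in 8 tumours.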

How the data were processed

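RNA of 8 tumours was sequenced from TruSeq libraries, per the labels' protocols. The authors deposited 1 table of TPM for Ensembl gene IDs. Build rn6 and the tools bedtools, DESeq2, SAMtools 0.1.18 and STAR 2.4.0f1 appear in the submitters' processing notes, which assign them no role. How TPM was computed, the annotation release and any removal of mouse reads are not stated there. TPM keep no depth, so no counting interval was computed.

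Groups came from tumour titles. Replicates 1 and 2 were numbered here by sample order within a group and are not terms of the labels. Genes with at least 1 TPM in at least 2 libraries were fitted as log2(TPM + 1) with limma 3.58.1 in R 4.3.3, using 4 group means, variance moderation with a trend and robust to outlying genes, two-sided tests and Benjamini-Hochberg adjustment over 13686 genes in each of 7 comparisons, called below 0.05. This scale understates changes of low genes, such as Acta2 and Tagln. The fit was also run on simulated data with independent normal noise for each gene and no outlying library. That run does not show how often real changes pass in these tumours. Relations and ratios used exact permutation in Python 3.11.15. For relations it ignored the groups, so its p-values take in differences between groups as well as variation within them.

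The genes named were the 4 members and the most similar gene of each, printed for at most 2 IDs in each direction. Members and lists were chosen with earlier results of these data known. The reference table (47357 genes) carried 0 Ensembl IDs, so 14 lists of cell type and pathway genes could not be matched and are not reported. Alternatives were pseudocounts of 0.1 and 5 TPM, no filter, a filter of 5 TPM, quantile and median scaling, no trend, moderation that was not robust, a fit restricted to the groups in a comparison, and omitting single libraries.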

Additional observations from a re-analysis of the deposited data

How the results depend on the processing

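The differences of Acta2, Tagln and Des from control kept their sign under the 9 other settings and without any single library. Acta2 passed the threshold after quantile normalization, at -1.40 for rapamycin and -0.96 for the mean of the 3 groups, and no other setting that kept all libraries changed a call among the 4 genes. The sign of Vim is not fixed by the data. Against control it was -0.072 with rasagiline added under quantile normalization and -0.14 under median rescaling, and with clorgyline added it was 0.019 against rapamycin under median rescaling. Its r was 0.27 with Acta2 and 0.24 with Tagln after quantile normalization, and 0.0057 with Acta2 after median rescaling. The cause was not tested.

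Leaving out single libraries gave ranges for rapamycin against control of -1.76 to -1.001 (Acta2), -2.23 to -1.07 (Tagln), -1.30 to -0.84 (Des) and -0.32 to 0.20 (Vim). Over the 3 treatments averaged, against control, they were -0.96 to -0.71 (Acta2), -1.36 to -0.82 (Tagln), -0.82 to -0.62 (Des) and -0.12 to 0.050 (Vim). Against control Vim ranged from -0.18 to 0.035 with clorgyline added and from -0.036 to 0.087 with rasagiline added. It ranged from -0.27 to 0.25 and from -0.17 to 0.35 for the same combinations against rapamycin, and from -0.21 to 0.0088 between them. Acta2 ranged from 0.55 to 1.30 for the rasagiline combination against rapamycin, and Des from -0.52 to 0.10 between the combinations. The calls gained were those without rapamycin replicate 1, which leaves replicate 2 as the lone rapamycin tumour, assumed to vary like the other groups. The r of Des ranged from 0.782 to 0.948 with Acta2 and from 0.735 to 0.933 with Tagln. That of Vim ranged from -0.51 to 0.60 with Acta2, -0.47 to 0.44 with Tagln and -0.26 to 0.62 with Des. Treated minus control log2 ratios ranged from -1.11 to -0.65 (Acta2/Vim), -1.55 to -0.84 (Tagln/Vim), -0.83 to -0.52 (Des/Vim), 0.10 to 0.44 (Acta2/Tagln) and 0.13 to 0.36 (Des/Acta2). No adjusted exact permutation p was below 0.0794. With a library left out fewer than 28 arrangements exist, so the smallest exact permutation p is above 0.0357. These adjusted values therefore cannot decide whether the ratios differ. The r of Acta2 with Tagln stayed between 0.957 and 0.991.

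The number of all tested genes called, the background of each count, was, against control, 85 with rapamycin alone, 2 with clorgyline added, 207 with rasagiline added and 336 over the treatments averaged. With all libraries kept, it ranged over 0 to 105, 1 to 206, 26 to 924 and 38 to 426. With a library left out, it ranged over 0 to 1321, 0 to 145, 0 to 1007 and 0 to 1324. It was 0 in each without either control. Without rapamycin replicate 1 it was 1321, 143, 995 and 1324, and without replicate 2 it was 66, 145, 1007 and 1050. Without a clorgyline combination library it was 13 or fewer, 0, 25 or fewer and 33 or fewer, and without a rasagiline combination library 17 or fewer, 2, 11 or fewer and 71 or fewer. Against rapamycin it was 0 for clorgyline (0 to 1 with all libraries) and 2 for rasagiline (0 to 5), but 475 and 424 without rapamycin replicate 1, and otherwise 0 to 3 and 0 to 6. Between the combinations it was 3 (0 to 6, and 0 to 4 with a library left out). Tumour titles carry codes of a letter and a number. The letter E occurs in a control, a clorgyline combination tumour and a rasagiline combination tumour. The labels state no pairing, so no paired analysis was made and whether the letters mark one was not tested. Depth is unknown, so how far counting error limits the low values of Acta2 and Tagln cannot be given.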
